A study of Citrus sinensis and Citrus x aurantiifolia and Citrus x latifolia with 53 samples.

Results

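The roots of irrigated and unirrigated trees of 1 graft combination were compared, Mexican lime (ML, Citrus aurantiifolia) grafted on a tetraploid line of Swingle citrumelo 4475, a cross given in the labels as Citrus sinensis by Poncirus trifoliata. This combination is called ML4x, for Mexican lime on the 4x rootstock. The comparison held 7 of the 53 libraries of the series, chosen by their labels alone, with 4 from trees left 9 days without irrigation (water deficit, WD) and 3 from trees watered regularly (control, Ctrl). Each library came from the roots of a separate tree. The roots are rootstock tissue and carry the genome of the tetraploid citrumelo, whereas the scion above them was the same diploid lime in both groups. All trees had grown 2 years in 40 L pots in an insect-proof greenhouse. The question behind the design was how ploidy of either graft partner bears on a tree's tolerance of lack of water. The other root groups were the same scion on the diploid line of that rootstock (ML2x) and the triploid Persian lime on either line (PL2x and PL4x), each with 3 Ctrl and 4 WD libraries except PL2x, of which 3 WD libraries were used. Only 1 rootstock genotype was used, so a value for tetraploid roots is a value for this line.

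Roots are the first organ to meet drying soil. In plants generally they respond with abscisic acid made from carotenoid precursors, with altered aquaporins that set how easily water crosses membranes, with protective solutes and late embryogenesis abundant proteins, and with slower growth and altered nutrient uptake. In another citrus rootstock, Rangpur lime, doubled tetraploids have been described as more tolerant of drought, with more abscisic acid in the roots. The deposited tables hold identifiers of the kind used for clementine gene models and pair none of them with a gene name. Of the 24533 identifiers, 0 matched the sweet orange gene table at hand, so the response is described by single identifiers, by gene lists built from the other root and leaf libraries, and by level. Markers of root cell types, of leaf tissue and of the abscisic acid pathway could not be read in these files.

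The 7 libraries held between 8812840 and 23763722 counts. WD 2 and Ctrl 1 had the fewest, so that each group held 1 shallow library. The counts of the 9 pairs of libraries within a group differed well beyond sampling noise, with a mean chi-square per gene of at least 26.4 where noise alone gives about 1. In bulk roots fewer cells of a type and less RNA per cell cannot be told apart.

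Lack of water changed the level of 2935 of 20452 genes tested, which is 14.4%, by edgeR's quasi-likelihood test at an adjusted p under 0.05 (Benjamini-Hochberg over all genes). Of these 1304 rose (6.38%) and 1631 fell (7.97%). Falls were more often large, since 1286 genes fell and 826 rose by more than 2-fold, and 481 fell and 135 rose by more than 8-fold. The median log2 fold change of all genes tested was -0.02. In 2586 genes (12.6%) every WD library stood above every Ctrl library, and in 2915 (14.3%) every WD library stood below, and 1166 of the genes that rose and 1494 of those that fell were among these. The counts depended on single trees. Without WD 3 there were 1415 called genes (609 higher and 806 lower), without Ctrl 2 there were 1789 (785 and 1004), and without Ctrl 3 there were 1552, of which 723 were higher. Without Ctrl 1 there were 809 higher, and without WD 2 there were 1070 lower. Without WD 1 the total was 4229, and a fit of these 7 libraries alone called 1787.

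Ciclev10006437m.g rose by the largest factor among called genes whose libraries did not overlap and whose higher group averaged at least 10 CPM (the read count scaled to library size), with at least 1 count in the lower group. It stood at 17.6, 115, 100.2 and 56.9 CPM in WD 1 to 4, against 0.714, 0.762 and 0.565 CPM in Ctrl 1 to 3. All 4 WD libraries lay far above the controls, with WD 1 the lowest of them. The log2 fold change was 6.72 ± 0.80 (SE, adjusted p = 7.5e-05). Beside it, the same gene had a log2 fold change of 5.67 ± 0.73 in ML2x, 5.96 ± 0.75 in PL2x and 6.60 ± 0.78 in PL4x roots. In irrigated ML4x roots it was a rare transcript, with 34 counts in the 3 control libraries together.

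The gene with the largest gain in CPM was already abundant in irrigated roots. Ciclev10024637m.g stood at 2510.3, 3501, 3902 and 3347 CPM in WD 1 to 4, against 901, 763 and 494 CPM in Ctrl 1 to 3. The groups did not overlap, and WD 1 was again the lowest of the WD libraries. It averaged 3315 ± 585 CPM in WD and 719 ± 207 CPM in Ctrl roots (SD, n = 4 and 3), a log2 fold change of 2.20 ± 0.32 (SE, adjusted p = 2.8e-04).

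Among genes that fell, Ciclev10032298m.g lost the most CPM. It ranked number 6 by level in the irrigated roots of the other 3 combinations, and stood at 859, 804, 527 and 879.9 CPM in WD 1 to 4, against 2333, 3426 and 3991 CPM in Ctrl 1 to 3. The highest WD library was below the lowest control, and WD 1 lay among the other WD libraries. The log2 fold change was -2.08 ± 0.32 (SE, adjusted p = 3.6e-04). The values beside it were -1.92 ± 0.32 in ML2x, -0.74 ± 0.34 in PL2x (adjusted p = 0.21) and -2.30 ± 0.32 in PL4x roots.

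Under the same limits the largest fall by factor was that of Ciclev10006107m.g, whose control mean of 11.2 CPM passed the limit of 10 CPM only through Ctrl 3. This gene had 0 counts in WD 1, 2 and 3 and 1 count in WD 4, against 5, 44 and 551 counts in Ctrl 1 to 3. In CPM the controls stood at 0.595, 1.86 and 31.2, so the irrigated trees differed among themselves by far more than they did for the genes above. The pooled level in WD was 0.00116 of that in Ctrl, with a 95% exact interval of 2.9e-05 to 0.00647 that covers counting error only. The fitted log2 fold change was -9.07 ± 1.70 (SE, adjusted p = 0.0015), and without Ctrl 3 it was -5.94 (adjusted p = 0.027).

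**Figure D1:**
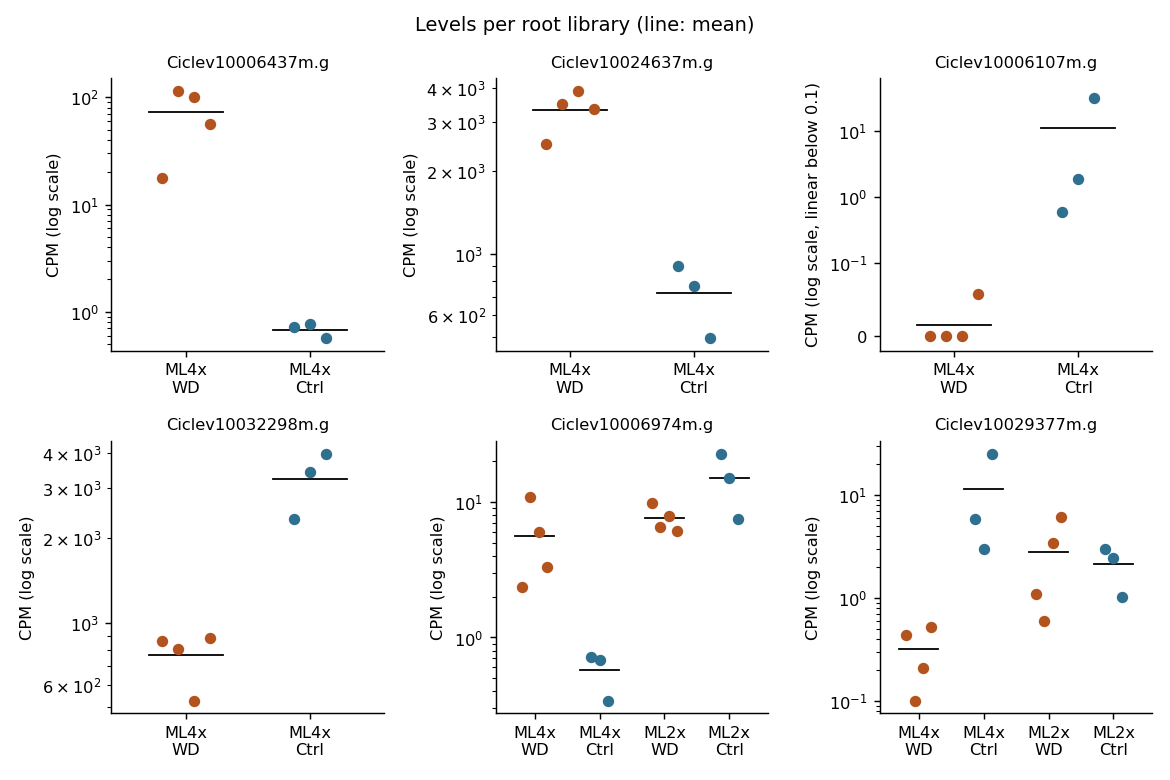
Level of 6 identifiers in each root library, in CPM on a log scale (linear below 0.1 for Ciclev10006107m.g), with WD in brown and Ctrl in blue; each point is the library of a tree, in label order, and the line is the mean. The first 4 panels show ML4x alone, where WD and Ctrl do not overlap. The last 2 panels add ML2x roots, where Ciclev10006974m.g and Ciclev10029377m.g did not pass the test of water deficit.

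A few transcripts stood at 1 CPM or more in every library of one group and had 0 counts in the other. These genes were picked after their values were seen. Ciclev10017668m.g had 0 counts in the 3 controls and stood at 1.47, 60.0, 60.3 and 5.45 CPM in WD 1 to 4, at least 527-fold higher by a floor of 3 counts over the group. Ciclev10009815m.g had 0 counts in the controls and stood at 1.43, 6.83, 17 and 7.07 CPM in WD 1 to 4, at least 134-fold higher. In both genes WD 1 had the lowest level of the WD libraries. The reverse held for 1 gene, Ciclev10029922m.g, with 0 counts in all 4 WD libraries and 1.9, 4.95 and 3.62 CPM in Ctrl 1 to 3, at least 83.4-fold lower. With a limit of 0.5 CPM in the controls there were 3 such genes.

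Most genes that responded in the roots of all 3 other combinations were also called in ML4x. In a fit of the 20 root libraries that are not ML4x, 302 genes were called higher and 217 lower in each of ML2x, PL2x and PL4x. The ML4x calls came from the fit of all roots, where the spread of a gene is estimated largely from those 20 libraries. The shares called in ML4x are therefore not independent of the lists. Of the 302 higher genes 261 rose in ML4x roots (86.4%, against 6.38% of all genes tested), 0 fell and 41 were not called. Their median log2 fold change was 1.55. Of the 217 lower genes 172 fell in ML4x (79.3%, against 7.97% of all genes), 0 rose and 45 were not called. Their median was -1.82. For the combinations on which the lists were chosen the medians were 1.74 in ML2x, 1.73 in PL2x and 1.81 in PL4x for the higher genes, and -2.52, -2.0 and -2.10 for the lower genes. The lists held 20.0% of the genes that rose in ML4x and 10.5% of those that fell.

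The same lists can be read as a share of all transcripts. The 302 higher genes took 4.41, 5.95, 6.94 and 5.73% of the CPM in WD 1 to 4, against 1.86, 1.91 and 1.63% in Ctrl 1 to 3. The 217 lower genes took 0.617, 0.365, 0.295 and 0.32% in WD 1 to 4, against 0.89, 1.17 and 1.33% in Ctrl 1 to 3. Neither list overlapped between the groups, and WD 1 lay nearest to the controls in both.

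Across the 20317 genes tested in both fits, the log2 fold change in ML4x correlated with the mean of the other 3 combinations at r = 0.81, with a slope of 0.77. No library is shared between these values, although all trees grew in the same greenhouse, and genes are not independent replicates.

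**Figure D2:**
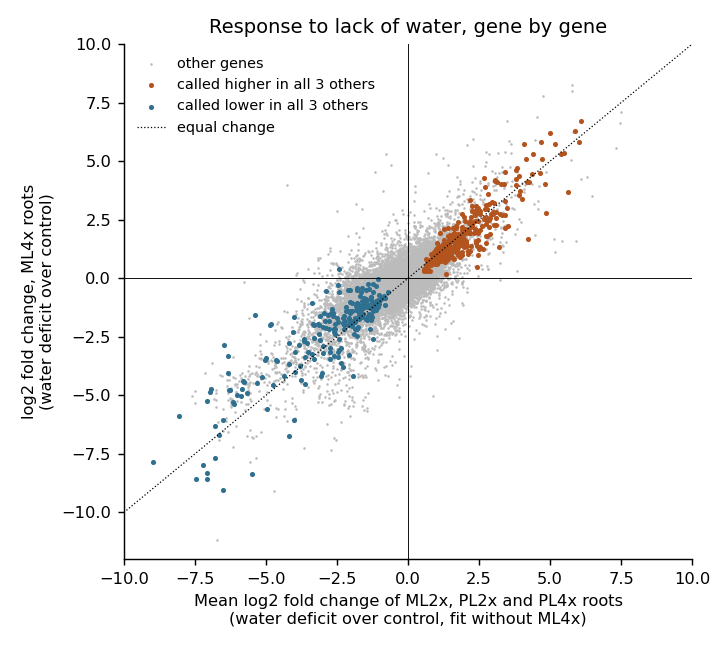
Log2 fold change of water deficit over control in ML4x roots (vertical axis) against its mean in ML2x, PL2x and PL4x roots (horizontal axis), for 20317 genes; brown and blue points are the 302 higher and 217 lower genes called in all 3 of the other combinations, and the dotted line marks equal change. The coloured points fall on the same side of 0 in both for all of the higher genes and for 216 of the lower ones.

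Set beside each other combination in turn, the lists of called genes overlapped to different extents. In the fit of all roots, water deficit called 39.4% of genes in ML2x (16.5% higher, 22.9% lower), 3.76% in PL2x (2.31% and 1.45%) and 18.5% in PL4x (8.9% and 9.64%). These counts depended on the tool, since voom called 5878 genes in ML4x, 10940 in ML2x, 8204 in PL2x and 10241 in PL4x, so that ML4x and not PL2x had the fewest. The overlaps that follow are those of edgeR's calls, and were not computed for voom's. For them the other combinations were called in the fit without ML4x. Of 20317 genes tested in both fits, it called 3155 higher and 4489 lower in ML2x. It called 374 and 291 in PL2x, and 1613 and 1912 in PL4x. Of the ML4x genes tested in both fits, 68.1% of those that rose and 72.2% of those that fell were called in the same direction in ML2x roots, which made up 28.1% and 26.1% of the longer ML2x lists. In PL4x roots, which share the tetraploid rootstock, the shares were 65.3% and 63.2% of the ML4x lists and 52.6% and 53.7% of the PL4x lists. In PL2x roots they were 23.2% and 11.6% of the ML4x lists, and 80.7% and 64.6% of the PL2x lists. In 0 of the other combinations were 236 of the ML4x higher genes and 333 of the lower genes called. Of these, 220 and 309 had the same sign in the mean of the other combinations, where their medians were 0.37 and -0.43 against 1.02 and -1.25 in ML4x. These genes were chosen as called in ML4x alone, so the larger medians in ML4x follow at least in part from that choice. The share of all genes with the same sign in both is not given beside these counts. There were 10 genes higher in ML4x and 3 lower that were called the other way in at least 1 other combination.

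Whether the response of ML4x roots differed from the others was tested directly, and 0 genes passed edgeR's test. For ML4x minus ML2x the smallest adjusted p was 0.09, with 2915 genes at an unadjusted p under 0.05 (DESeq2 called 271 and limma's voom 58). For ML4x minus PL4x the unadjusted count was 656, and both DESeq2 and voom called 0. For ML4x minus the mean of the other 3 it was 1627, with 33 called by DESeq2 and 1 by voom. Calls for the difference from ML2x appeared when single trees were left out. There were 38 when ML2x WD 1 was dropped and 24 when ML2x Ctrl 3 was dropped. Dropping ML4x Ctrl 2 gave 1 call and dropping ML4x WD 4 gave 8. On the mean of the others, 2 genes were called without ML4x Ctrl 2. On counts simulated with the same spread for every gene, this test for ML2x recovered 31 of 100 genes that differed 4-fold. It recovered 2 of 100 that differed 2-fold. In the data the spread differs between genes, so these shares are a rough guide, and differences of these sizes could be missed.

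The gene with the smallest p for a more positive response than in ML2x was Ciclev10006974m.g. It stood at 2.35, 11.0, 5.97 and 3.31 CPM in ML4x WD 1 to 4, against 0.714, 0.678 and 0.339 CPM in ML4x Ctrl 1 to 3. In ML2x it stood at 9.8, 6.51, 7.97 and 6.14 CPM in WD 1 to 4, against 22.9, 15.2 and 7.46 CPM in Ctrl 1 to 3. The WD roots of ML4x and ML2x overlapped in level, and the irrigated roots did not, in a gene chosen for this difference. Irrigated roots averaged 6.76 CPM in PL2x and 1.91 CPM in PL4x. The log2 fold change was 0.71 ± 0.53 in PL2x (edgeR adjusted p = 0.44) and 0.84 ± 0.52 in PL4x (adjusted p = 0.25). Ciclev10006974m.g rose in ML4x (log2 3.29 ± 0.60, SE, adjusted p = 0.0012) and was at -0.96 ± 0.50 in ML2x (adjusted p = 0.13). The difference of ML4x from ML2x was 4.25 ± 0.78, with adjusted p = 0.09 in edgeR's test. Its adjusted p ranged from 2.8e-04 with DESeq2 to 0.3 in edgeR without ML2x Ctrl 1.

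In the other direction the smallest p was that of Ciclev10029377m.g, whose ML4x control mean of 11.4 CPM passed the limit of 10 CPM only through Ctrl 3. It stood at 0.438, 0.10, 0.208 and 0.522 CPM in ML4x WD 1 to 4, against 5.83, 3.01 and 25.2 CPM in ML4x Ctrl 1 to 3. In ML2x it stood at 1.09, 0.592, 3.43 and 6.14 CPM in WD 1 to 4, the last from 6 counts, against 2.97, 2.45 and 1.03 CPM in Ctrl 1 to 3, and the groups overlapped. It fell in ML4x (log2 -5.07 ± 0.79, SE, adjusted p = 4.2e-04). The log2 fold change was -0.17 ± 0.80 in PL2x (edgeR adjusted p = 0.92) and -0.86 ± 0.70 in PL4x (adjusted p = 0.41). The difference from ML2x was -5.17 ± 1.08, with adjusted p = 0.10 in edgeR's test, and -3.81 without ML4x Ctrl 3. Its adjusted p ranged from 0.0015 with DESeq2 to 0.31 in edgeR without ML2x Ctrl 1.

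The 4 WD trees did not respond to the same extent, and WD 1 had the weakest response. Each library was placed on an axis from the mean log2 CPM of irrigated roots (0%) to that of WD roots (100%) in the other 3 combinations. ML4x WD 1 to 4 scored 35.9, 110.4, 116 and 87.4%, against 12, 11.5 and 9.95% in Ctrl 1 to 3. The mean was 87.4 ± 36.4% in WD and 11.2 ± 1.09% in Ctrl roots (SD, n = 4 and 3), so the spread lay among the WD trees. No p is given, since a two-sided permutation of 3 against 4 libraries cannot go below 0.0571.

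WD 1 was the weakest of the 4 WD libraries in 242 of the 302 higher genes and in 167 of the 217 lower ones. It was nonetheless past the controls in most of them, since 261 of the higher genes stood above all 3 controls and 182 of the lower genes below all 3. In WD 2, 3 and 4 those counts were 294, 298 and 293 for the higher and 204, 210 and 213 for the lower genes. Shares over all genes are not given for single libraries, so the counts are read only beside those of the other WD libraries. WD 1 was the deepest of the 7 libraries. The part of depth in its score was not tested.

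**Figure D3:**
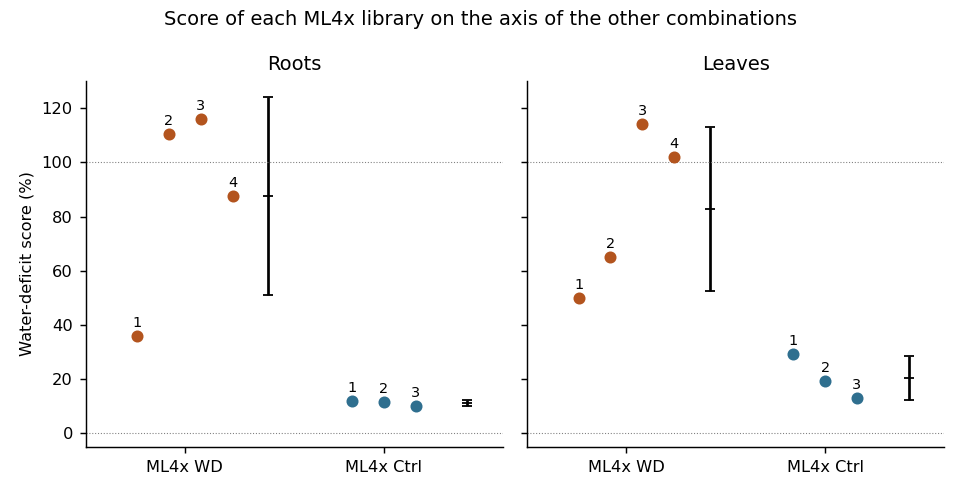
Water-deficit score of each ML4x library, in percent, for roots (left) and leaves (right); 0 and 100 (dotted) are the irrigated and WD means of the other 3 combinations in that tissue, the digits are replicate numbers in the labels, and bars are mean ± SD. In roots WD 1 at 35.9% lies apart from WD 2 to 4, at 87.4% to 116%, and all WD libraries lie above the controls.

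Between combinations the scores were compared on axes built from the combinations not compared. The response, WD mean minus Ctrl mean, was 91.3 points in ML4x and 143 points in ML2x roots, a difference of -51.4 points (exact permutation test, two-sided, p = 0.044, adjusted p = 0.13 over 3 comparisons). On that axis the WD libraries scored 39.5, 123, 131 and 97.4% in ML4x, against 92.3, 142, 146 and 147% in ML2x, and the WD groups overlapped. The Ctrl libraries scored 7.53, 7.27 and 4.63% in ML4x, against -16.9, -9.52 and -5.44% in ML2x, and did not overlap. Part of the difference in response therefore lay in the irrigated roots. The highest score was that of ML2x WD 4, the shallowest root library at 1118899 counts. The part of depth in that score was not tested. Without ML4x WD 1 the difference was -32.0 points (exact permutation p = 0.10), and it was -18.5 points (exact permutation p = 0.22) when only genes called in both axis combinations were scored. Against PL4x the difference was -16.2 points (70.6 points in ML4x and 86.8 in PL4x, exact permutation p = 0.49), and 0.093 without ML4x WD 1. Against PL2x it was 5.75 points (65.4 points in ML4x and 59.7 in PL2x, exact permutation p = 0.83). None passed after adjustment.

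Among genes enriched in roots over leaves, more fell than rose. They were defined in the irrigated trees of the other 3 combinations, as at least 8-fold higher in roots than in leaves and at least 1 CPM in roots, so that no ML4x library entered. All 2322 such genes were tested, and 492 fell (21.2%, against 7.97% of all genes), 156 rose (6.72%, against 6.38%) and 1674 were not called. Their median log2 fold change was -0.58, against -0.02 over all genes. They took 14.3, 11.2, 11.2 and 10.9% of the CPM in WD 1 to 4, against 14.9, 14.2 and 14.9% in Ctrl 1 to 3.

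In this class WD 1 stood with the controls. Its median log2 change from the control mean was 0.01, against -1.10, -1.16 and -0.85 in WD 2, 3 and 4. Without WD 1 the count was 703 lower and 174 higher and the median was -1.04. Without WD 3 there were 279 lower and 92 higher, without Ctrl 2 324 lower, and without Ctrl 3 275 lower and 88 higher; the median of the class was below 0 in each of these fits.

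**Figure D4:**
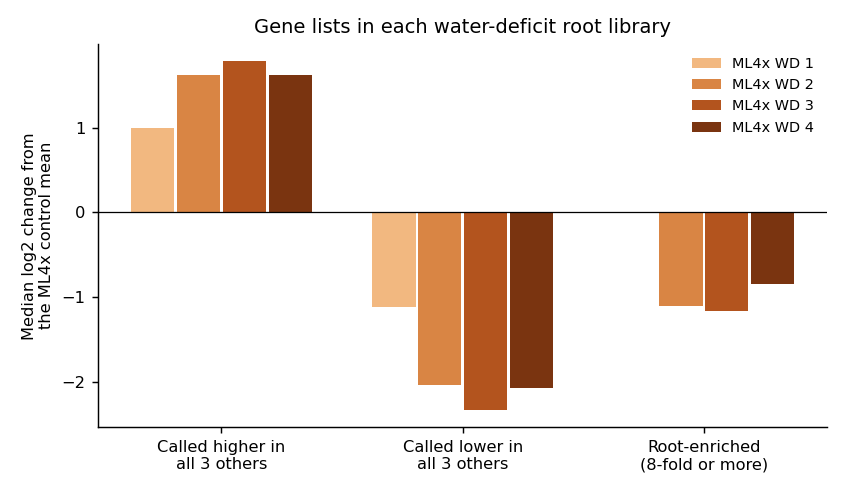
Median log2 change of each ML4x WD root library from the mean of the 3 ML4x controls (vertical axis, log2) for the 302 genes called higher and the 217 called lower in all 3 of the other combinations and for 2322 root-enriched genes. WD 1 moved less than WD 2 to 4 in the first 2 lists (0.99 and -1.11) and stood at 0.01 in the root-enriched genes.

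The number of transcripts at a measurable level was also lower under water deficit, a count chosen after the values were seen. Genes at 1 CPM or more numbered 18204, 17237, 17172 and 17443 in WD 1 to 4, against 18248, 18209 and 18232 in Ctrl 1 to 3. WD 1 stood just below the lowest control, and the other WD libraries lay lower. With every library thinned to 8812840 counts, genes with at least 10 reads numbered 18188, 17040, 17014 and 17277 in WD 1 to 4, against 18046, 18061 and 18086 in Ctrl 1 to 3, so WD 1 then lay above the controls.

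By level, most calls among the most abundant transcripts of irrigated roots were falls, as were 1631 of the 2935 calls over all genes. Levels were taken from the 9 control roots of the other combinations. Of all genes tested 7.97% fell and 6.38% rose. Of the 47 genes at 1000 CPM or more, 7 fell (14.9%) and 1 rose (2.13%), with a median of -0.40. They took 9.18, 8.39, 8.04 and 9.55% of the CPM in WD 1 to 4, against 10.3, 11.8 and 11.2% in Ctrl 1 to 3, which do not overlap. Without Ctrl 2, 4 of them fell. Of 2104 genes between 100 and 1000 CPM, 227 fell (10.8%) and 132 rose (6.27%). Of 10453 genes between 10 and 100 CPM, 839 fell (8.03%) and 767 rose (7.34%), shares close to those of all genes. Of 5992 genes between 1 and 10 CPM, 488 fell (8.14%) and 291 rose (4.86%). Between 10 and 100 CPM the balance of falls and rises turned without Ctrl 3, with 412 lower and 445 higher, and without WD 3 there were 398 lower and 339 higher. Between 100 and 1000 CPM there were 117 lower and 60 higher without WD 3. Under 1 CPM only 1856 of 5937 genes passed the filter on low counts, so no count is read from them.

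**Figure D5:**
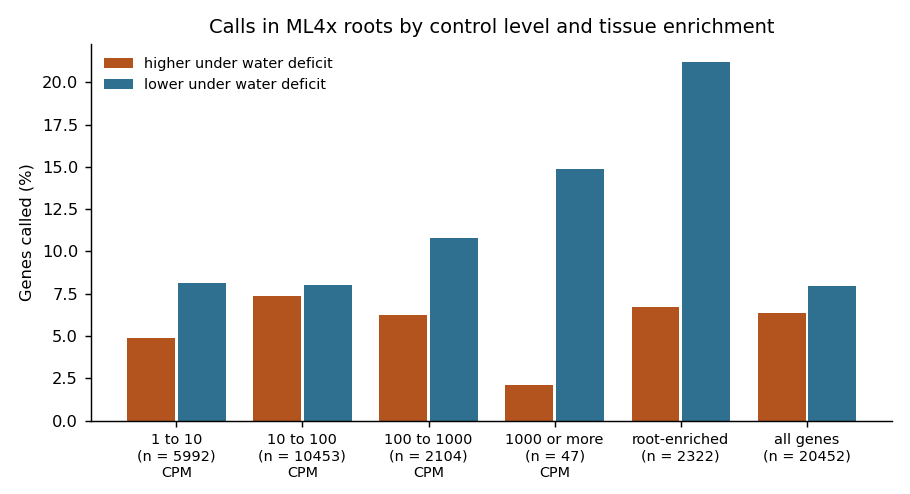
Percent of genes called higher (brown) and lower (blue) in ML4x roots under water deficit, by level in irrigated roots of the other combinations, for root-enriched genes and for all 20452 genes tested. The lower bar reaches 21.2% in root-enriched genes and 14.9% at 1000 CPM or more, against 7.97% over all genes.

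In the leaves of this combination, scion tissue, the number of calls depended on the tool. In ML4x leaves 57 genes rose (0.298% of 19140 tested) and 49 fell (0.256%) by edgeR, 0.554% in all. DESeq2 called 826 genes in leaves and 3892 in roots, whereas voom called 6246 in leaves and 5878 in roots, so under voom leaves had more calls than roots. Of the 57 that rose, 20 also rose in ML4x roots (35.1% of the leaf list, against 6.38% of all root genes tested, and 1.65% of the root list), and 1 root gene of each direction was called the other way in leaves. Of 48 leaf genes that fell and were tested in roots, 16 also fell there (33.3%, against 7.97% of all root genes tested, and 1.31% of the root list). Among the 18179 genes tested in both tissues, 1209 rose and 1226 fell in roots, and the shares of the root list are of these. Genes called in both tissues numbered 163 higher and 120 lower by DESeq2, and 893 and 899 by voom. The genes that rose in roots had a median log2 fold change of 0.44 in leaves and those that fell a median of -0.36, against 0.05 over all leaf genes. On the leaf axis WD 1 to 4 scored 50.0, 65.1, 114 and 102%, against 29.2, 19.3 and 13.1% in Ctrl 1 to 3. WD 1 was the lowest WD library in both tissues, although the labels do not state that a number marks the same tree.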

How the data were processed

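Raw read counts per gene were deposited by the authors for 53 libraries, 26 of leaves and 27 of roots. The submitters' processing notes name Trimmomatic, a read trimmer, and HTSeq, a read counter. Libraries came from a stranded mRNA kit and 1 µg of RNA, per the labels' protocols. Not given in the sources used here were the aligner, genome build, tool versions and strand setting. Reads that differ from the reference, or that near-identical copies share, can be lost or misassigned.

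All 27 root libraries (1118899 to 27925992 counts) were fitted together in edgeR 4.0.16 (R 4.3.3) with 8 groups, filterByExpr, TMM scaling and the robust quasi-likelihood F test, with Benjamini-Hochberg adjustment. SE are those of log2 fold changes, taken as the size of the log2 fold change over the square root of its F statistic. They are therefore approximate. The common biological coefficient of variation was 0.371. Counts were also simulated with the same biological spread for every gene (20150 genes tested). There the ML4x comparison recovered 84 of 100 genes changed 4-fold and 7 of 100 changed 2-fold. In the data the spread differs between genes, so these shares are a rough guide to what could be missed. Genes called lower or higher in all 3 other combinations came from a fit without ML4x. Scores used log2 CPM with a prior count of 2. DESeq2 1.42.0 and limma 3.58.1 (voom with quality weights) were alternatives. Named identifiers were, per direction, the largest fold change (no overlap, at least 10 CPM in the higher group, at least 1 count in the lower), the largest CPM difference, and the smallest p for the difference from ML2x (at least 10 CPM in a group). Members and lists were chosen with earlier results of these data known. Planned gene lists and cell type markers had 0 matching identifiers.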

Additional observations from a re-analysis of the deposited data

Results flagged for a closer look

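Some values in ML4x WD roots stood apart from the other libraries of their group by Dixon's criterion, which flags about 1 in 20 groups by chance. WD 1 was above all 3 controls in 261 of the 302 genes called higher in the other combinations, against 293 to 298 in the other WD libraries. It was the weakest WD library in 242 of these genes and in 167 of the 217 lower genes. These counts come from overlapping lists in 1 tree and are not separate observations. No share over all genes is given beside them. The level of Ciclev10006107m.g in WD 4, 0.058 CPM, was set apart by 1 count, the other WD libraries having 0. On the axis from PL2x and PL4x, the score of ML2x WD 1 was 92.3%, against 142 to 147% in the other ML2x WD roots.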

How the results depend on the processing

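Against 2935 genes called in ML4x roots, separate fits called 2879 with DESeq2's size factors, 3892 with DESeq2 and 2816 with no low-count filter. Voom called 5878 (2679 higher, 3199 lower, 3348 over 2-fold) and a fit of the 7 libraries alone 1787 (835, 952 and 1407). Leaving out 1 library gave 1415 to 4229 in all, 609 to 1869 higher, 806 to 2360 lower and 1192 to 3071 over 2-fold. For the difference of response from ML2x, DESeq2 called 271, voom 58 and leave-one-out fits 0 to 38; for that from the mean of the others 33, 1 and 0 to 2; for that from PL4x 0 in all. Voom lists from the other combinations held 2094 higher and 2857 lower genes, 1321 and 1743 of them called in ML4x; with 1 ML4x library left out, 209 to 282 and 134 to 197 were called. The cause of these shifts was not tested.

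The replicate numbers were not shown to pair trees. Deviations of same-numbered WD and Ctrl libraries correlated at 0.05, 0.01 and 0.12. WD 1 and WD 3 correlated best with the control of their own number, whereas WD 2 correlated best with Ctrl 3 (0.07). With the number as a replicate block, 1150 genes were higher and 1143 lower (2293 in all), and 1 gene was called for the difference from ML2x and 1 for that from the mean of the others.

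The ML4x score response of 76.2 points ranged from 66.7 to 93.3 points with 1 library left out. Its difference from ML2x ranged from -62.5 to -32.0, from PL2x from -2.63 to 20.8 (-1.05 without WD 2, -2.63 without WD 3) and from PL4x from -24.8 to 0.093 (without WD 1). With DESeq2's size factors the median log2 fold change was -0.06 over all genes, -0.01 at 10 to 100 CPM and -0.09 at 100 to 1000 CPM; with no filter the last 2 were 0.05 and -0.02. Leave-one-out medians ran from -0.04 to 0.02 over all genes, -0.14 to 0.19 under 1 CPM, -0.23 to -0.07 at 1 to 10, 0.02 to 0.06 at 10 to 100, -0.07 to -0.02 at 100 to 1000 and -0.47 to -0.30 at 1000 CPM or more, -0.81 to -0.61 in the 10 most abundant, -1.04 to -0.44 in root-enriched and -0.15 to 0.14 in leaf-enriched genes, the last 0.26 at 32-fold enrichment. Genes at 0 counts under water deficit numbered 3 at 0.5 CPM and 2 with 1 count allowed. Genes higher in both ML4x tissues numbered 893 by voom and 163 by DESeq2, and lower 899 and 120.

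The 4 genes named for water deficit kept their direction and call in every alternative run. In the simulated counts, with the same spread for every gene, 7 of 100 genes changed 2-fold were recovered. In the data 2112 of the 2935 called genes changed by more than 2-fold, and the rest by 2-fold or less.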

Other observations

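Over 18596 genes at 1 CPM or more in irrigated roots of the other combinations, the median SD of log2 CPM was 0.342 among the 4 WD libraries of ML4x, 0.274 without WD 1 and 0.294 among the 3 controls.

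In the leaves of the same combination, Ciclev10006437m.g stood at 0.126, 2.35, 14 and 3.44 CPM in WD 1 to 4, against 0, 0.151 and 0.105 CPM in Ctrl 1 to 3, and did not pass edgeR's test there (adjusted p = 0.12). Ciclev10024637m.g averaged 678 CPM in WD and 248 CPM in Ctrl leaves (edgeR adjusted p = 0.22).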
